A study of Mus musculus with 8 samples.

Results

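Tubuloids are hollow epithelial structures that grow in Matrigel, a gel of basement membrane proteins, from fragments of mouse kidney tubules. The study also describes globular prestructures in such cultures, which lack the epithelial marker E-cadherin and often support the tubuloids. It names no step that removed them before RNA was taken. RNA sequencing of 8 tubuloid cultures was deposited, and the 4 cultures with the treatment label control are described here on their own. They are named by the numbers in their titles, cultures 3, 7, 14 and 21, and every set of 4 values below is in that order. The fragments came from kidneys of mice at postnatal days 7 to 10 per the labels (the study's methods give a younger range), with the genotype Pkd2fl/fl Pax8rtTA TetOCre mTmG. In these mice both alleles of *Pkd2*, which encodes polycystin 2, can be deleted by a Cre recombinase under a doxycycline-dependent Pax8 promoter system that acts in tubule epithelium, and mTmG is a fluorescent reporter of Cre activity. Neither doxycycline nor induced Cre is named for these cultures. Control cultures received medium with hepatocyte growth factor, epidermal growth factor, basic fibroblast growth factor and serum but no glial-derived neurotrophic factor, and RNA was taken after 7 days. The fragments had been held back on a strainer that lets single cells through, so cells attached to tubules could come with them.

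The nephron is a tube whose segments carry different transporters. Podocytes at its start form the filter, the proximal tubule takes back most filtered solutes, the thick ascending limb and the distal convoluted tubule reabsorb salt, and the connecting tubule and collecting duct adjust water, sodium, potassium and acid. The collecting duct grows from the ureteric bud, and the other segments form from mesenchymal progenitors that pass through early nephron stages. Each segment can therefore be looked for through the RNA of its own carriers, channels and regulators.

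Read counts summed over all transcript entries ranged from 85536401 to 97490625 per culture. With 1 transcript standing for each gene they ranged from 55137585 to 62846609 over 24063 genes. Levels are the authors' TPM, the abundance of a transcript corrected for its length and scaled to the same total in each culture. Shares of TPM below are of the TPM summed over 1 transcript per gene, not over all transcript entries. That sum was 671157 to 684835 TPM per culture. Here 3 counts, the smallest number taken as a level, equalled 0.0242 to 0.0309 TPM for a transcript of 2000 bases. The labels do not say whether each of the 4 cultures came from its own mouse, so the SD over cultures may in part be technical. The sequencing lane of each culture was not given in the sources used here. *Xist*, the RNA of the inactive X chromosome, was at 12.5, 52.7, 0 and 0.0517 TPM, while 4 Y-linked genes summed to 1.5, 0, 116 and 139 TPM. Cultures 14 and 21 thus held Y-linked RNA and next to no *Xist*, culture 7 held *Xist* with no Y-linked count, and culture 3 held *Xist* with a low Y-linked level. By these RNAs culture 7 differed in sex from cultures 14 and 21, so the 4 cultures did not all come from a single mouse. The part of sex in the spread between cultures was not tested. *Pkd2* itself was present in all 4 cultures, at 8.57, 16.7, 17.7 and 18.7 TPM. A level over the whole transcript does not show whether part of the gene had been deleted.

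A gene was taken as detected at 1 TPM or more in each of the 4 cultures. By this rule 12034 of 24063 genes, 50% of all genes, were detected. Another 5528 genes, 23% of all, had at most 3 counts in any culture, of which 4402 had none, and 6501 lay between. The number of genes at 1 TPM or more was between 12544 and 13494 in a single culture. The means of 6962 genes reached 10 TPM, those of 1098 genes reached 100 TPM and those of 95 genes reached 1000 TPM.

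The most abundant RNAs encoded an actin-binding peptide, a matrix glycoprotein and the translation machinery. *Tmsb4x* (NM_021278, GRCm38 chromosome X, 167207093 to 167213479) encodes thymosin beta 4, which holds actin monomers in reserve. It was at 16295, 15975, 18675 and 14777 TPM, or 16430.5 ± 1633 (SD, n = 4), and its highest culture was 1.26 times its lowest. *Spp1* (NM_001204201, chromosome 5, 104435111 to 104441053) encodes osteopontin, a secreted phosphoprotein made by tubule cells, above all after injury. It was at 17483, 20986, 14404 and 11442 TPM, or 16079 ± 4097 (SD, n = 4). Both genes stood well above the rest: the next, *S100a6*, which encodes a calcium-binding protein, had a mean of 4601 TPM. Together *Spp1* and *Tmsb4x* held 4.78% ± 0.686 (SD, n = 4) of the TPM summed over 1 transcript per gene. The 300 bases around the annotated start of *Spp1*, from 250 before to 50 after it, are shown because *Spp1* is one of the 2 most abundant RNAs and a known product of kidney tubules. They are from RefSeq (GRCm38.p6, chr5:104434861-104435160, plus strand), with the match to TATAAA, the core of the TATA box, in capitals.
Spp1: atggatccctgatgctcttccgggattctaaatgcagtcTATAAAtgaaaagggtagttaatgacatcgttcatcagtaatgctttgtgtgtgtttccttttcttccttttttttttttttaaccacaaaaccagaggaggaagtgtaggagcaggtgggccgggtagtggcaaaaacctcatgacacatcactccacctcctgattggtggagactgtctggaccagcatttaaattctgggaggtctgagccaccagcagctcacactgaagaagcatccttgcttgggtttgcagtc
The match begins at position -211 relative to the start. Searched on both strands, TATAAA was found in 13.6% of 32851 RefSeq windows of the same length. RefSeq lists 2 start windows for the gene, and the other held no match.

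**Figure D1:**
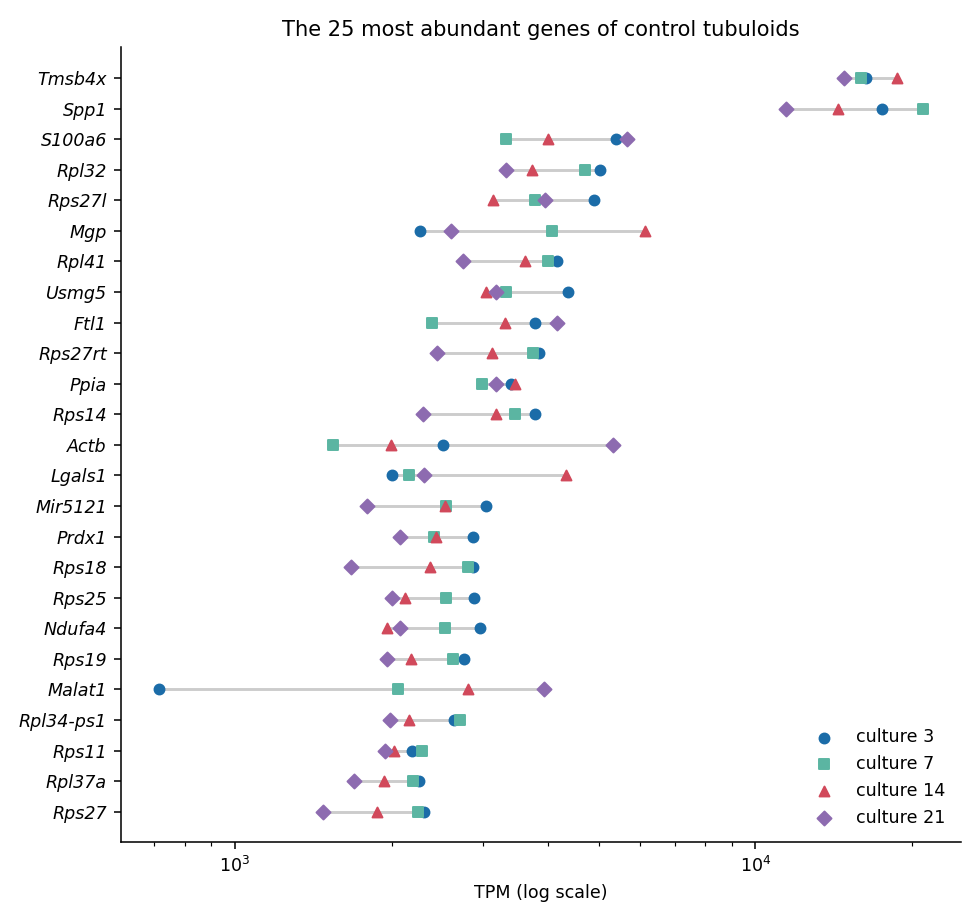
TPM (log axis) of the 25 genes with the highest mean, ordered by mean, with 1 symbol for each of the 4 control cultures and a grey line from the lowest to the highest. *Tmsb4x* and *Spp1* lie to the right of all others in every culture, from 11442 TPM upward, and *Malat1*, *Actb*, *Mgp* and *Lgals1* have the longest lines.

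The 25 genes with the highest means held 14.7% ± 1.07 (SD, n = 4) of the TPM summed over 1 transcript per gene, and 347 genes held 50% of it. The list ends at *Rps27* with a mean of 1975 TPM, and the next gene, *S100a11*, was at 1948 TPM. Of the 25, 11 are genes named for ribosomal proteins. Over all genes, 83 of 86 of that kind, pseudogenes left out, were detected and held 13.8% ± 1.61 (SD, n = 4) of TPM. *Rps27*, *Rps27rt* and *Rps27l* resemble each other in sequence and *Rpl34-ps1* is a pseudogene, so how reads were divided between them and their close copies is uncertain. *Mir5121* has an annotated span of 74 bases (chromosome 7, 45126918 to 45126991) inside *Rpl13a*, itself at a mean of 1169 TPM. Its mean of 2479 TPM therefore cannot be separated from reads of that gene and is not a level of the mature microRNA, which these libraries do not capture.

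Several of the 25 differed between cultures. *Mgp*, whose product matrix Gla protein keeps soft tissue from calcifying, was at 2263, 4067, 6126 and 2603 TPM and thus highest in culture 14. *Lgals1*, which encodes the sugar-binding protein galectin 1, was at 2001, 2158, 4317 and 2303 TPM, again highest in culture 14. *Malat1*, a nuclear long non-coding RNA, was at 714, 2054, 2798 and 3924 TPM, lowest in culture 3 and highest in culture 21. *Actb*, cytoplasmic actin and a common reference gene, was at 2509, 1540.3, 1996 and 5324 TPM. *Ppia*, another reference gene, was at 3385, 2979, 3446 and 3173 TPM and its cultures lay within 1.16 times of each other.

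The cultures carried the RNA of a kidney epithelium. All 15 genes of a list of epithelial and kidney epithelial markers were detected, against 50% of all genes, with a median of their means of 58.3 TPM against 1.93 TPM over all genes. Keratins 8, 18, 7 and 19, the intermediate filament proteins of simple epithelia, were the strongest. *Krt18* was at 895, 362, 134 and 1502 TPM, or 723 ± 609 (SD, n = 4). *Krt8*, the partner with which keratin 18 assembles, was at 673, 222, 99.4 and 1259 TPM, or 563 ± 525. *Krt7* was at 605, 294, 115 and 1079 TPM and *Krt19* at 541, 285, 131 and 572 TPM. All 4 keratins had the same order, with culture 21 highest, culture 3 next, then culture 7 and culture 14 lowest. Of 52 keratin genes, 11 were detected and 20 had at most 3 counts in any culture, against 50% and 23% of all genes, and keratins as a family held between 0.0791% and 0.686% of TPM. Since these are bulk samples, fewer cells of a type and less RNA per cell cannot be told apart, here and in the results that follow.

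*Krt8* (chromosome 15, 101996711 to 102004342) and *Krt18* (chromosome 15, 102028216 to 102032026) are neighbours on the same chromosome and read in opposite directions. Their start windows are shown because their levels ran in parallel through the 4 cultures (RefSeq, GRCm38.p6, chr15:102004293-102004592, minus strand, and chr15:102027966-102028265, plus strand, each 5′ to 3′ along its gene, with matches to TATAAA in capitals).
Krt8: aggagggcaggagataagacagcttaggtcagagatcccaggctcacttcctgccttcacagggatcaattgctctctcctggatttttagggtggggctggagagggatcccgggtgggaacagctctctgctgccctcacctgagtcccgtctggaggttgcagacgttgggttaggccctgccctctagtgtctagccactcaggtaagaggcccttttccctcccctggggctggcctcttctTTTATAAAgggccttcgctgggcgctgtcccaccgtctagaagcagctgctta
Krt18: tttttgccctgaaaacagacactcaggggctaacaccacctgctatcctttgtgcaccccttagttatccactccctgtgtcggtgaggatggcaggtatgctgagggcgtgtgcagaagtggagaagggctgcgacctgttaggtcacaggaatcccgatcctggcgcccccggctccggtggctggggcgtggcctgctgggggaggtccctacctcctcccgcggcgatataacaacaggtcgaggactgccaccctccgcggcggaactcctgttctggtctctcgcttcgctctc
In the *Krt8* window TATAAA overlaps its own reverse complement and begins at position -1 relative to the annotated start, or at -3 on the other strand. The *Krt18* window had no match to TATAAA.

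The adhesion genes of the list varied too. *Cdh1*, which encodes E-cadherin, was at 27.6, 23.2, 7.12 and 57.5 TPM and *Cdh16*, the kidney-specific cadherin, at 44.3, 40.7, 11.7 and 57.9 TPM. *Epcam*, an epithelial surface adhesion molecule, was at 179.6, 169.6, 66 and 175 TPM. All 3 were lowest in culture 14. *Pax8*, the paired-box factor of the kidney lineage whose promoter drives the transgene, was at 61.9, 46.8, 30.5 and 93.9 TPM. *Pax2*, the relative of *Pax8* that fades as tubules mature, was much lower at 1.69, 2.88, 1.01 and 3.09 TPM. Of the 15 genes, 14 were lowest in culture 14, against 17.3% of all genes whose mean reached 1 TPM, and *Tjp1*, which encodes the junction protein ZO-1, was lowest in culture 3. The summed level of the list was 3454, 1742, 711 and 5217 TPM, a 7.34-fold range. In CPM, counts scaled to library size with TMM factors and not divided by transcript length, 14 of 15 were again lowest in culture 14, against 24.1% of those genes, and the range was 6.4-fold.

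Claudins seal the junctions between epithelial cells and set which ions pass. Of 25 claudin genes, 12 were detected, close to the share of all genes. The 4 highest were *Cldn7* at 269.8, 198, 59.6 and 275 TPM, *Cldn6* at 164, 46.2, 12 and 256 TPM, *Cldn3* at 114, 54.4, 16.9 and 113 TPM and *Cldn4* at 103, 47.3, 33 and 73.5 TPM. *Cldn6* is known from embryonic epithelia. These 4 too were lowest in culture 14.

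**Figure D2:**
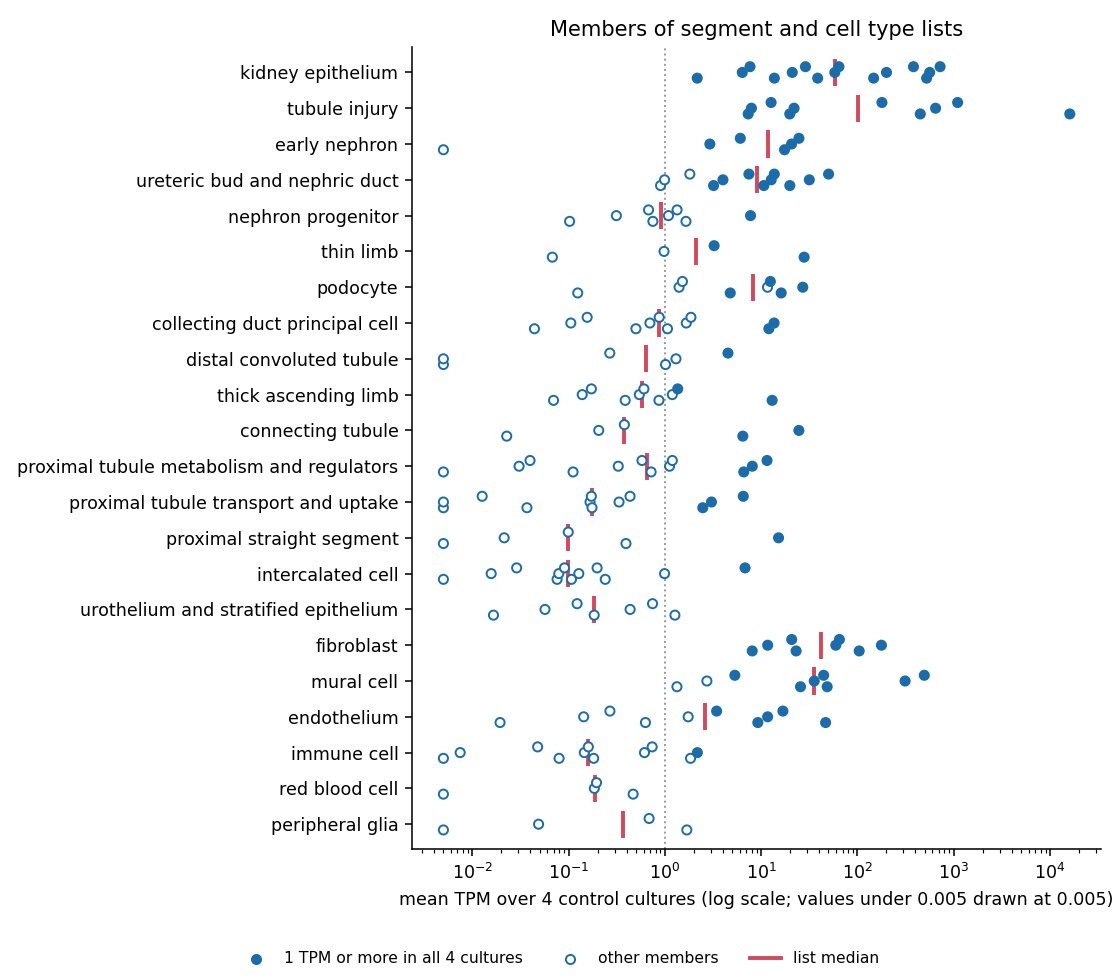
Mean TPM over the 4 control cultures (log axis) of each member of the marker lists. Filled circles are members at 1 TPM or more in all 4 cultures, open circles the others, and red bars list medians. Most members of the kidney epithelium, injury and fibroblast lists lie above 1 TPM and most members of the mature tubule segment lists below it.

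Mature proximal tubule RNA was sparse. Of 12 carriers and uptake receptors of the proximal tubule, 3 were detected, against 50% of all genes, and the median of the 12 means was 0.174 TPM. *Slc5a2*, the sodium-glucose cotransporter SGLT2, was at 3.75, 6.92, 8.37 and 7.06 TPM. The bicarbonate carrier *Slc4a4* was at 2.07, 4.4, 1.47 and 4.25 TPM, and *Slc3a1*, the heavy subunit of the cystine carrier, at 1.95, 2.72, 2.01 and 3.22 TPM. These 3 are the detected members, and they were not accompanied by the others. *Slc22a6*, which encodes the organic anion transporter OAT1, had 0 counts in all 4 cultures, which allows up to 3 counts in each. The phosphate carrier *Slc34a1* had 2, 0, 0 and 6 counts, and *Slc5a12*, a lactate carrier, had 2, 0, 1 and 1. *Lrp2*, which encodes the uptake receptor megalin, reached at most 0.0731 TPM and its partner *Cubn* at most 0.216 TPM.

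Genes of proximal tubule metabolism gave a like picture, with 3 of 12 detected, against 50% of all genes, and a median of 0.648 TPM. *Ass1*, an enzyme of arginine synthesis, was at 8.72, 13.7, 14.4 and 9.17 TPM, *Gatm*, an enzyme of creatine synthesis, at 3.84, 6.59, 11.5 and 10.5 TPM and *Ggt1*, the brush border gamma-glutamyltransferase, at 11.3, 8.58, 2.26 and 4.24 TPM. *Hnf4a*, the nuclear receptor that directs proximal tubule maturation, was at 0.00741, 0.242, 0.134 and 0.0614 TPM. *G6pc*, the last enzyme of glucose production, had no count in any culture. In the list for the straight proximal segment 1 of 5 was detected, again against 50% of all genes. It was *Cyp7b1*, a steroid hydroxylase, at 9.9, 16.9, 20.3 and 13.6 TPM, while *Slc22a7* had no count.

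Of the loop of Henle, 2 of 4 thin limb genes and 2 of 10 thick ascending limb genes were detected, against 50% of all genes. The thin limb members were *Fst*, the activin antagonist follistatin, at 49.2, 16.3, 16.5 and 29.7 TPM and *Slc14a2*, a urea transporter, at 2.98, 2.29, 1.02 and 6.69 TPM. In the thick limb list *Cldn10*, a claudin of paracellular sodium flow, was at 27.3, 14.7, 7.05 and 2.94 TPM, and *Ptger3*, a prostaglandin receptor, at 1.28, 1.2, 1.67 and 1.28 TPM. *Umod*, the urinary protein uromodulin and the most abundant product of the mature segment, was at 0.914, 2.02, 0.259 and 0.271 TPM. *Slc12a1*, the furosemide-sensitive cotransporter NKCC2, stayed between 0.108 and 0.23 TPM. *Kcnj1*, the potassium channel ROMK, was at 1.41, 0.758, 0.179 and 0.0737 TPM. Summed over the 10 genes the level was 34.3, 22.4, 10.3 and 6.37 TPM, highest in culture 3 and lowest in culture 21, with the same order in TMM-scaled CPM. Most of each sum was *Cldn10* alone, except in culture 21, where it stood at 2.94 TPM.

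Distal convoluted tubule identity rested on 1 detected gene of 6, against 50% of all genes. It was *Wnk4*, a kinase that regulates sodium chloride transport, at 3.47, 6.19, 3.69 and 4.74 TPM. *Slc12a3*, the thiazide-sensitive cotransporter that defines the segment, was at 0.117, 0.802, 0.0572 and 0.0935 TPM and reached its highest value in culture 7. *Pvalb* and *Emx1* had no count in any culture. *Trpm6*, a magnesium channel, was at 0.695, 2.06, 0.456 and 0.85 TPM, again highest in culture 7.

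Collecting duct RNA was also sparse. For the connecting tubule the share detected was near that of all genes, with a list median of 0.379 TPM. The share detected was 40% of connecting tubule, 18.2% of principal cell and 8.33% of intercalated cell genes. It was 25% in each of the proximal carrier and metabolism lists and 50% over all genes. Of 5 connecting tubule genes, 2 were detected, and both encode intracellular calcium-binding proteins. *S100g*, calbindin D9k, was at 41.6, 29.9, 18 and 9.09 TPM, and *Calb1*, calbindin D28k, at 10.7, 11.2, 1.23 and 2.67 TPM. Both were higher in cultures 3 and 7 than in cultures 14 and 21. *Trpv5*, the apical calcium channel, had 7, 0, 0 and 6 counts.

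Among 11 principal cell genes, 2 were detected. *Fxyd4*, a regulator of the sodium pump in collecting duct, was at 19.9, 21.7, 4.98 and 7.92 TPM, or 13.6 ± 8.41 (SD, n = 4). *Gata3*, a zinc finger factor of the collecting duct lineage, was at 8.83, 16.1, 6.48 and 16.7 TPM, or 12 ± 5.14. *Avpr2*, the vasopressin receptor, was at 2.55, 3.58, 0.719 and 0.613 TPM, over 1 TPM in cultures 3 and 7 and under it in cultures 14 and 21. The water channel *Aqp2*, which vasopressin moves to the apical membrane, had 4, 8, 3 and 0 counts, at most 0.0946 TPM. The epithelial sodium channel was present at low level through its beta subunit *Scnn1b* at 1.7, 3.36, 0.133 and 1.47 TPM and its gamma subunit *Scnn1g* at 0.833, 2.12, 0.185 and 1.12 TPM, with the alpha subunit *Scnn1a* at 0.328, 0.934, 0.132 and 0.606 TPM. All 3 subunits were highest in culture 7 and lowest in culture 14. The summed level of the 11 genes was 35.9, 50.1, 14.4 and 30.1 TPM and followed that order at its ends, also in TMM-scaled CPM. No aquaporin of 11 was detected, against 50% of all genes. The highest mean was that of *Aqp11* at 1 TPM, and *Aqp3*, the basolateral channel of principal cells, was at 0.531, 0.37, 1.04 and 0.852 TPM.

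Intercalated cells secrete acid or base. Of 12 of their genes 1 was detected, *Atp6v0d2*, a subunit of the proton pump that other cells also use, at 6.49, 9.75, 4.11 and 6.86 TPM. *Foxi1*, the forkhead factor that specifies the cell type, had 2, 47, 11 and 0 counts. The anion exchanger *Slc4a1* had at most 1 count in any culture. *Slc26a4*, the exchanger pendrin of base-secreting cells, had 0, 20, 0 and 1 counts, nearly all in culture 7, as were most of those of *Foxi1*.

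Solute carriers as a whole were detected at about the share of all genes, 50%. Of 368 genes 181 were detected and 36 had at most 3 counts in any culture, and the most abundant 4 were 3 mitochondrial carriers and a zinc transporter. The adenine nucleotide carriers *Slc25a4* and *Slc25a5* were at 465, 419, 594 and 452 TPM and at 362, 377, 386 and 431 TPM. The phosphate carrier *Slc25a3* was at 262, 242, 228 and 350.0 TPM and *Slc39a7* at 82.5, 103, 132 and 130.0 TPM. Of 15 genes of the sodium pump and its FXYD regulators 9 were detected, against 50% of all genes. The beta subunit *Atp1b3* was at 126, 124, 169.9 and 139 TPM and the regulator *Fxyd3* at 189.7, 179, 34 and 46.3 TPM, so that *Fxyd3*, unlike *Atp1b3*, was much lower in cultures 14 and 21.

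**Figure D3:**
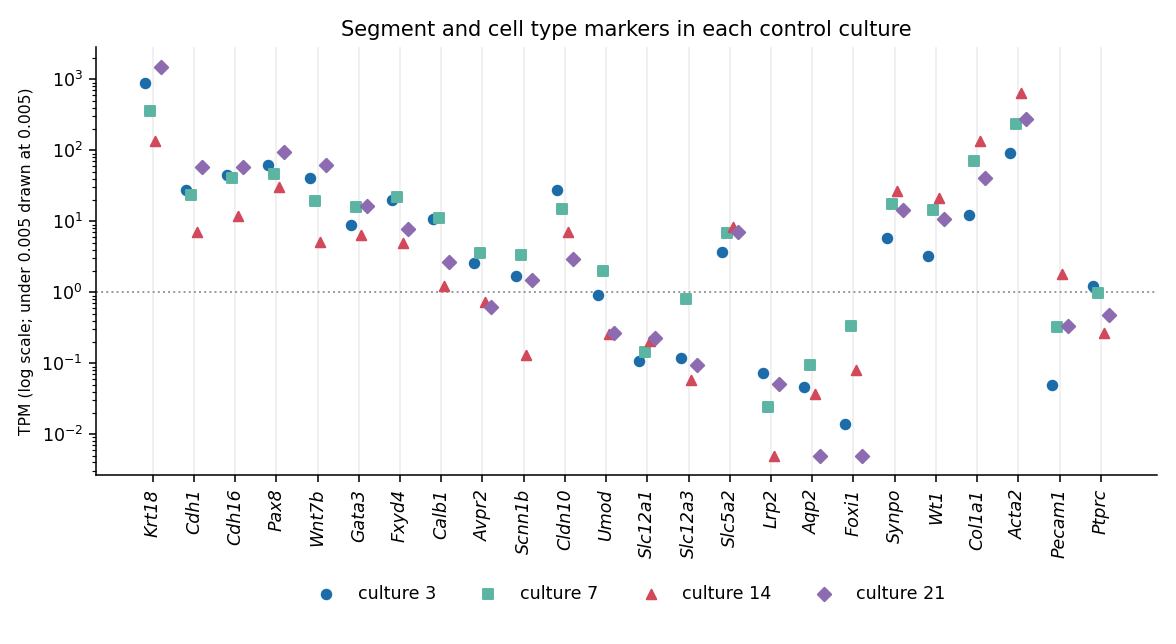
TPM (log axis, values under 0.005 drawn at 0.005) of selected markers in each of the 4 control cultures, with a dotted line at 1 TPM. Epithelial and bud markers lie above the line in every culture, *Slc12a1*, *Slc12a3*, *Lrp2*, *Aqp2* and *Foxi1* lie below it in every culture, and *Synpo*, *Col1a1* and *Acta2* are highest in culture 14.

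Of 12 genes of the ureteric bud and nephric duct 9 were detected, against 50% of all genes, with a median of 9.07 TPM against 1.93 TPM over all genes. *Wnt7b*, a ligand of collecting duct stalks, was at 40.9, 19.1, 5.03 and 61.7 TPM, with the largest range of the list. *Hoxb7*, a homeobox gene of the nephric duct, was at 63.5, 47.5, 38.2 and 51.5 TPM and *Sox9*, a factor of bud tips and of repairing tubules, at 23.6, 21.4, 7.12 and 27.2 TPM. *Ret*, the receptor tyrosine kinase for glial-derived neurotrophic factor, was low, at 0.695, 0.919, 0.572 and 1.78 TPM, and its co-receptor *Gfra1* was at 6.78, 11.4, 15.4 and 9.1 TPM. *Wnt11*, a ligand of bud tips, was at 3.25, 4.61, 3.96 and 4.21 TPM. *Etv4* and *Etv5*, ETS factors downstream of receptor tyrosine kinases, were steady, at 10.6, 15.3, 12.7 and 12.3 TPM and 11.2, 14.1, 14.7 and 14.7 TPM. The sum over the list was 172, 153, 105 and 198 TPM. It was lowest in culture 14 on either scale, while the highest was culture 21 in TPM and culture 3 in TMM-scaled CPM.

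Nephron progenitor RNA was at the edge of detection. Of 8 genes 1 was detected, against 50% of all genes. The count was 2 without culture 3 or without culture 21, and 4 where only the mean had to reach 1 TPM. The detected gene was the zinc finger factor *Sall1* at 5.72, 10.1, 6.99 and 8.16 TPM, and *Sall1* is also active outside progenitors. *Six2*, the factor that keeps progenitors undifferentiated, had 207, 240, 134 and 79 counts and its mean was 1.34 TPM. *Eya1*, its cofactor, was at 0.407, 1.25, 2.98 and 1.98 TPM, and *Osr1*, a factor of the earliest kidney mesenchyme, at 0.265, 0.183, 2.51 and 1.4 TPM, so that these members, unlike *Six2*, were highest in culture 14. Early nephron genes were more abundant, with 5 of 6 detected, against 50% of all genes. *Wnt4*, the ligand that turns mesenchyme into epithelium, was at 12.4, 17.9, 19.8 and 19.9 TPM. *Jag1*, a Notch ligand, was at 15.7, 26.9, 12.2 and 27.9 TPM and *Cdh6*, the cadherin of the early proximal nephron, at 15.5, 28.4, 19.3 and 35.5 TPM. *Fgf8* had no count in any culture.

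Of 29 transcription factors of kidney segments 17 were detected, or 58.6%, near the 50% of all genes. The 10 with the highest means included *Elf3*, *Pax8*, *Hoxb7*, *Hoxd10*, *Hoxd8*, *Wt1*, *Gata3* and *Ehf* and ran from 60.7 to 11.1 TPM. *Elf3* and *Ehf* are ETS factors of secretory and glandular epithelia, at 57.8, 83.6, 18.8 and 82.4 TPM and 11.4, 14.9, 3.45 and 14.5 TPM. *Grhl2*, a grainyhead factor of epithelial junctions, was at 4.44, 6.47, 1.04 and 7.79 TPM. The Iroquois factor *Irx3* was at 10.7, 8.13, 8.79 and 7.29 TPM, whereas *Irx1*, a factor of the middle nephron, was at 0.415, 0.252, 0.116 and 0.14 TPM, and *Esrrb* had at most 3 counts in any culture. In this list 15 of 21 members that averaged at least 1 TPM were lowest in culture 14 in TMM-scaled CPM, against 24.1% of all such genes. Among 39 Hox genes 26 were detected, against 50% of all genes. They were led by *Hoxa10* at 83, 87.2, 94.1 and 74.5 TPM, *Hoxb2* at 68.4, 60.1, 36.1 and 61 TPM and *Hoxb7*.

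All 10 genes of a tubule injury list were detected, against 50% of all genes, with a median of 101 TPM. *Clu*, the secreted chaperone clusterin, was at 1099, 1661, 606 and 1032 TPM, or 1099.6 ± 433 (SD, n = 4). *Lcn2*, the iron carrier NGAL, was at 689, 1231, 281 and 394 TPM, or 649 ± 425. *Timp1*, a metalloproteinase inhibitor, was at 216, 362, 876 and 346 TPM. These came after *Spp1*, also a member, and *Timp1*, unlike *Spp1*, *Clu* and *Lcn2*, was highest in culture 14. *Havcr1*, the injury receptor KIM-1 of proximal tubules, was at 15.5, 4.67, 1.92 and 9.62 TPM, *Krt20* at 31.4, 7.61, 2.68 and 37.6 TPM and the cell cycle inhibitor *Cdkn1a* at 235, 127, 85.8 and 272 TPM. *Vcam1*, an adhesion molecule of tubules that fail to repair, was at 5.49, 8.23, 7.39 and 8.21 TPM. *Havcr1* and *Krt20* were higher in cultures 3 and 21 than in cultures 7 and 14, as were the keratins of simple epithelium.

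Other cell types of the kidney left RNA in the cultures. All 8 fibroblast genes were detected, against 50% of all genes, with a median of 41.4 TPM. *Col1a1*, a chain of fibrillar collagen, was at 12.3, 70.3, 136 and 41.3 TPM, *Col3a1* at 40, 123, 394 and 153 TPM and *Dcn*, the collagen-binding proteoglycan decorin, at 7.9, 9.06, 178 and 43.2 TPM. *Pdgfra*, the receptor that marks fibroblasts, was at 2.85, 7.34, 14.5 and 7.65 TPM. The list summed to 104, 352, 1054 and 372 TPM, a 10.2-fold range. All 8 genes were highest in culture 14 on either scale, and 8 in TPM or 7 in TMM-scaled CPM were lowest in culture 3. The background is uneven too: of the 13363 genes whose mean reached 1 TPM, 29.1% were highest in culture 14 and 58.0% lowest in culture 3 in TPM, against 25.2% and 35.0% in TMM-scaled CPM.

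Of 9 genes of mural cells, the contractile cells of vessels, 7 were detected, against 50% of all genes. *Acta2*, smooth muscle actin, was at 92.2, 237, 644 and 279 TPM and *Tagln*, an actin-binding protein of smooth muscle, at 188, 388, 1109.8 and 295 TPM. *Pdgfrb*, a receptor of pericytes, was at 14.2, 42.9, 54.2 and 31 TPM. *Ren1*, which encodes renin, was at 0.5, 0.436, 3.98 and 0.42 TPM, over 1 TPM in culture 14 alone. *Rgs5*, a regulator of G protein signalling in pericytes, was at 44.1, 35.4, 86.8 and 27.7 TPM and the muscle filament gene *Des* at 24.5, 23.7, 34.3 and 20 TPM. On either scale 8 of the 9 were highest in culture 14, 6 were lowest in culture 3 and 3, *Rgs5*, *Des* and *Ren1*, were lowest in culture 21. The list summed to 374, 763, 2053 and 698 TPM.

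Of 8 podocyte genes 4 were detected, the same share as the 50% of all genes. *Synpo*, which encodes the actin-binding protein synaptopodin of podocyte foot processes, was at 5.86, 17.4, 27.1 and 14.3 TPM. *Wt1*, the zinc finger factor of podocytes and their precursors, was at 3.26, 14.3, 21.5 and 10.8 TPM. *Nphs1*, the slit protein nephrin, had 0, 38, 103 and 20 counts, at most 0.312 TPM. The list summed to 23.8, 75.5, 140.4 and 61 TPM. All 7 members that averaged at least 1 TPM were highest in culture 14 and lowest in culture 3 on either scale.

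Of 10 endothelial genes 5 were detected, again the 50% of all genes, *Plvap*, *Emcn*, *Egfl7*, *Flt1* and *Ehd3*, of which *Plvap*, a protein of fenestrated capillaries, was highest at 24.4, 42.4, 89.3 and 30.9 TPM. The defining junction genes were near 0 in most cultures: *Pecam1* was at 0.0497, 0.32, 1.81 and 0.336 TPM and *Cdh5*, which encodes VE-cadherin, at 0, 0.0378, 0.499 and 0.0361 TPM, both highest in culture 14. Blood cells and glia were hardly present. Of 11 immune genes 1 was detected, *Fcer1g*, against 50% of all genes, and the common leukocyte antigen *Ptprc* was at 1.22, 0.987, 0.265 and 0.477 TPM. The macrophage gene *Adgre1*, listed as *Emr1*, had 6, 0, 0 and 0 counts, and *Cd3e* of T cells had none. No red blood cell gene (of 4), no urothelial or stratified epithelial gene (of 7) and no peripheral glia gene (of 4) was detected, and *Sox10*, a factor of glia, had no count.

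By summed levels culture 14 was lowest in kidney epithelium and highest in fibroblast, mural cell, podocyte and endothelial RNA, while cultures 3 and 21 were highest in kidney epithelium. The part of cell composition in the differences between cultures was not tested. Culture 3 also differed in the kind of transcript read: 67.9% of its counts lay on transcripts no longer than the median of detected genes, against 56.6% to 59.2% in the other cultures, and its TMM factor was 0.90 against 1.02 to 1.05. Neither TPM nor TMM-scaled CPM removes such a difference by transcript length. Its part in levels that were lowest in culture 3 on either scale was not tested.

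**Figure D4:**
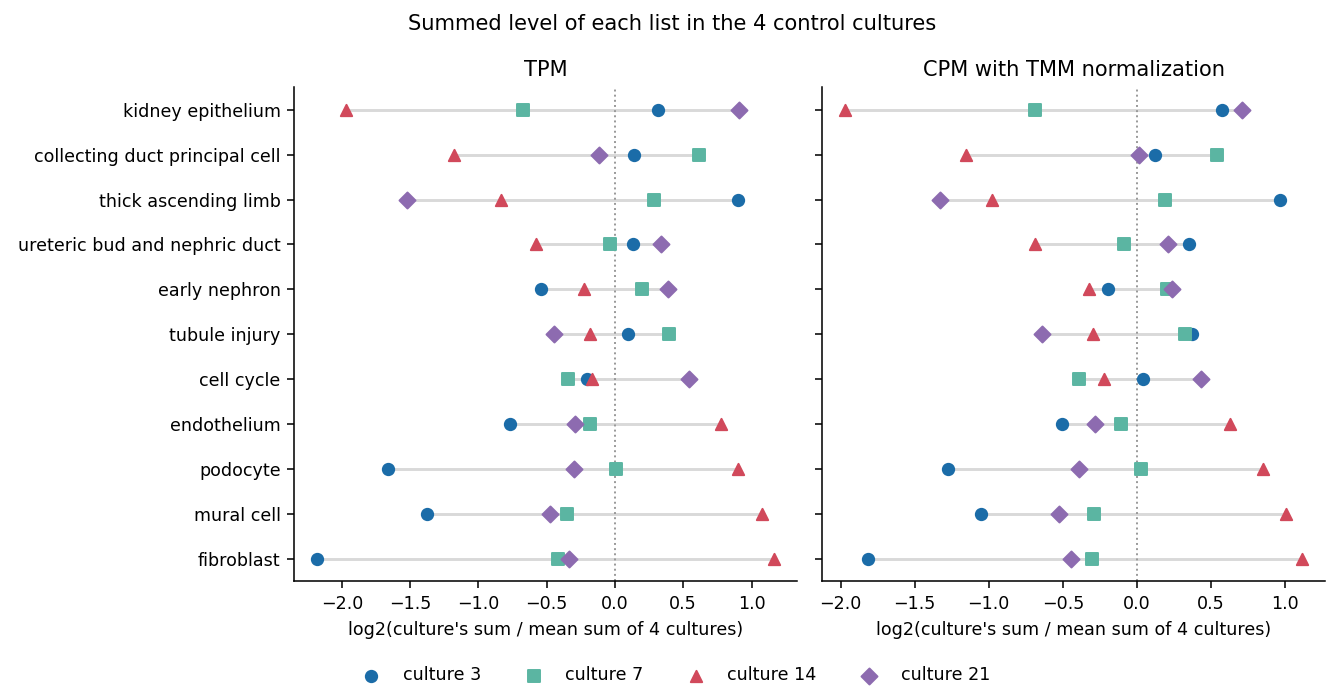
Log2 of each culture's summed level over the mean of the 4 cultures' sums, for 11 marker lists, in TPM (left) and in TMM-scaled CPM (right). Culture 14 (red triangles) is at the low end for kidney epithelium and at the high end for endothelium, podocyte, mural cell and fibroblast in both panels, and culture 3 (blue circles) is at the low end of those 4.

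The spread between cultures was described gene by gene. Over the 13363 genes whose mean reached 1 TPM, the median coefficient of variation, the SD divided by the mean, was 26.6%, with quartiles of 17.7% and 37.2%. Counting of independent reads would give a median of 2.35%, but amplified reads are not independent molecules, so the technical part of the spread was not measured. The highest culture was a median of 1.86 times the lowest. The common coefficient of variation that edgeR estimated from the counts of 15136 genes was 34.6%. Correlations of log2(TPM + 1) across genes, which are not independent replicates, ran from 0.970 for cultures 3 and 14 to 0.986 for cultures 7 and 21.

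A gene was called uneven where its highest culture was at least 4 times its lowest, and 1177 of the 13363 genes, 8.81% of them, were. Among list members with such a mean the count was 8 of 8 for fibroblast, 6 of 9 for mural cell, 6 of 7 for podocyte and 9 of 15 for kidney epithelium genes. It was 0 of 6 for endothelium, 0 of 5 for early nephron and 1 of 10 for ureteric bud genes. The endothelial members under that mean, *Pecam1*, *Cdh5*, *Kdr* and *Tek*, were not counted, so the 0 of 6 leaves out the defining junction genes. Their ratios were 36.3, 41.1, 4.5 and 5.19, those of *Cdh5* and *Tek* taken against 3 counts. *Pecam1*, *Cdh5* and *Kdr* were highest in culture 14.

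The 12 most uneven genes, of 6955 that averaged at least 10 TPM and had at least 10 counts in every culture, included *Ppbp*, *Actg2*, *Nts*, *Mfap5*, *Gpihbp1*, *Fabp4*, *Postn*, *Pf4*, *Dcn*, *Cldn6* and *Wnt7a*, with ratios of at least 20.3. Of these, 8 were highest in culture 14 and 4 in culture 21. The chemokine *Ppbp* was at 192, 22.1, 5.88 and 462 TPM and its relative *Pf4*, platelet factor 4, at 4.26, 3.53, 2.6 and 60.5 TPM, both highest in culture 21. The smooth muscle actin *Actg2* was at 5.8, 48.8, 270.1 and 97.2 TPM and the neuropeptide gene *Nts* at 1.59, 0.937, 40.7 and 1.13 TPM. *Fabp4*, a fatty acid-binding protein of fat and capillary cells, was at 10.4, 9.59, 197 and 7.45 TPM, and *Gpihbp1*, which anchors lipoprotein lipase on capillaries, at 4.82, 3.61, 63.4 and 2.04 TPM. In these 4 genes culture 14 was the highest. The ligand *Wnt7a* was at 11.3, 6.59, 1.44 and 29.2 TPM, with culture 21 highest and culture 14 lowest, as were *Cldn6* and the keratins.

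**Figure D5:**
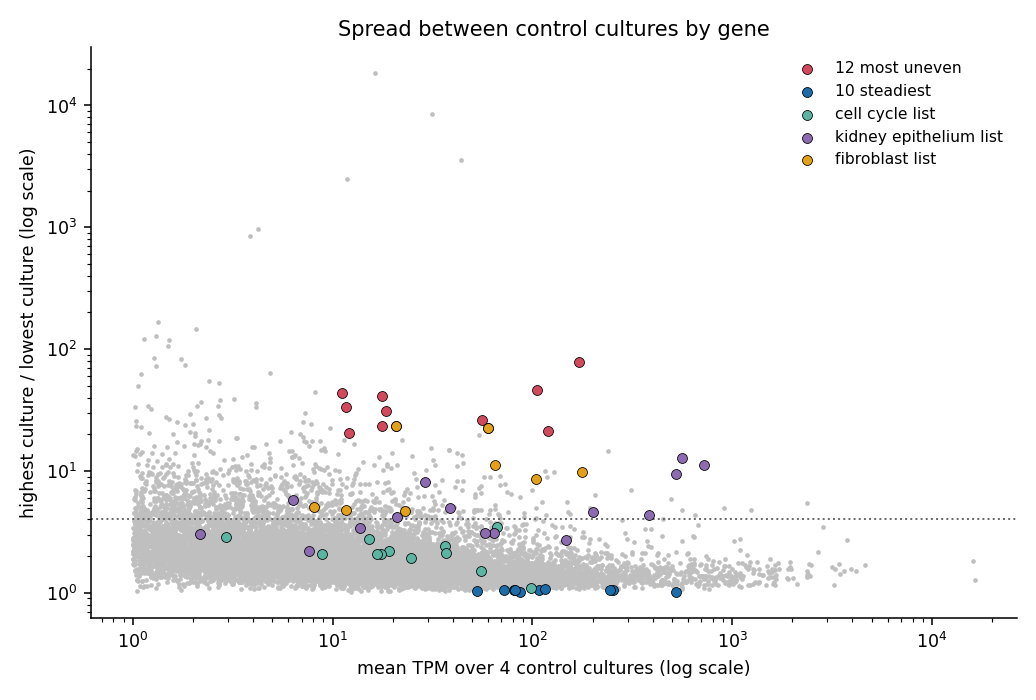
Ratio of the highest to the lowest culture against mean TPM over the 4 control cultures (both log axes) for genes that average 1 TPM or more. The dotted line marks a ratio of 4. All 8 fibroblast genes and 9 of 15 kidney epithelium genes lie above it, and all 12 cell cycle genes below it.

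At the other end, the 10 steadiest of 2117 genes that averaged at least 50 TPM were *Toporsos*, *Rplp0*, *0610012G03Rik*, *Ube2d3*, *Srp19*, *Atp5g2*, *Mad2l1*, *Dph3*, *Dnajb6* and *Mrpl24*. *Rplp0*, a ribosomal stalk protein, was at 530.2, 526, 521 and 521 TPM. *Ube2d3*, a ubiquitin-conjugating enzyme, was at 259, 247, 255 and 253 TPM and *Srp19*, of the signal recognition particle, at 247, 237, 249 and 241 TPM. The cultures of each of these 10 genes lay within 1.07 times of each other in TPM.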

How the data were processed

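RNA was sequenced from poly-A selected SMART-Seq v4 libraries (75 bp paired-end reads). The submitters' processing notes name STAR, featureCounts and DESeq2 and the build mm10/GRCm38, and versions are not given in the sources used here. The authors deposited 1 table per culture, with whole-number counts per RefSeq transcript that are not normalized. They also deposited FPKM, counts per transcript length and library total, and TPM, scaled over all 33068 transcript entries. The deposited FPKM were used only to recover transcript lengths (100% of implied lengths were within 0.001 bp of a whole number). Reads that fit several transcripts or gene copies may be counted for each, and strand handling was not given.

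The 4 control cultures were mapped to the group by their treatment label, and the tables of the cultures that received glial-derived neurotrophic factor were not used here. Each symbol was represented by its transcript of highest average count in the 4 cultures (ties by transcript name). No comparison between groups was made, since there was 1 group. Levels, SDs, ratios and Dixon ratios were computed in Python 3.11.15 (NumPy 2.4.6, pandas 2.3.3). The dispersion was estimated with edgeR 4.0.16 in R 4.3.3 (filterByExpr, TMM, intercept only), and DESeq2 1.42.0 gave alternative size factors. Ratios against a culture under 3 counts used 3 counts. Both steps were tested on simulated counts. The limit of 3 counts covers counting error only.

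The genes named are the 25 most abundant, the members of 28 marker lists, the 12 most uneven, the 10 steadiest and the 10 highest segment transcription factors. The 4 highest members of the claudins, keratins, aquaporins, solute carriers, Hox genes and sodium pump genes were added after their values were seen, as were the promoters shown. The control cultures, the lists and the rules were chosen with earlier results of these data known. Some members are not reported here on their own. Alternatives were other transcripts per gene, scalings, thresholds and filters, and leaving out each culture in turn.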

Additional observations from a re-analysis of the deposited data

Results flagged for a closer look

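Values in which 1 of the 4 cultures lay far from the other 3 by Dixon's 95% criterion were looked for among 232 genes and list sums, and 17 were found. Chance flags about 1 in 20 such groups, which is 12 of 232, so any single flag may be due to chance. That rate does not apply to the 12 most uneven genes, which were chosen for a large ratio. Among these *Fabp4*, *Gpihbp1*, *Mfap5*, *Nts* and *Pf4* were found. Some flags overlap, since *Krt14* and *Mcm2* are members of list sums that were also flagged. Of the 17, 11 were set by culture 14, 4 by culture 21 and 2 by culture 3. These are TPM, and no cause was tested.

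Culture 14 was high for *Fabp4* at 196.7 TPM (the others at 7.45 to 10.4 TPM), *Gpihbp1* at 63.4 TPM, *Mfap5*, which encodes a microfibril protein, at 53.3 TPM, *Nts* at 40.7 TPM and *Lgals1* at 4317 TPM. It was also high for *Ren1* at 3.98 TPM, *Krt14*, a keratin of stratified epithelium, at 3.87 TPM, the endothelial adhesion gene *Esam* at 3.47 TPM and the summed urothelial and stratified epithelial list at 5.93 TPM. Culture 14 was low for *Epcam* at 66.0 TPM (the others at 169.6 to 179.6 TPM) and for the Iroquois factor *Irx2* at 1.06 TPM. Culture 21 was high for *Pf4* at 60.5 TPM, for the replication licensing gene *Mcm2* at 28.1 TPM, for the summed cell cycle list at 581 TPM and for the summed red blood cell list at 1.79 TPM. Culture 3 was low for *Tjp1* at 4.12 TPM and for the summed polycystic kidney disease genes at 12.4 TPM. The transcripts of these genes are long, 7054 bp for *Tjp1* and 5212 to 14170 bp for the others. Culture 3 had the largest share of counts on short transcripts, 67.9%, and the part of length in these flags was not tested.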

How the results depend on the processing

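No paired analysis was possible because only 1 group was described. Requiring a mean of 1 TPM in place of 1 TPM in every culture moved the detected members from 2 to 5 for principal cell, from 1 to 3 for distal convoluted tubule, from 4 to 7 for podocyte and from 3 to 5 for proximal tubule metabolism genes. At 0.5 TPM principal cell became 4 and distal convoluted tubule 2. At 5 TPM the detected genes fell from 12034 to 7832, and the lists to 1 for principal cell, connecting tubule, thin limb and proximal tubule metabolism, to 2 for podocyte and to 0 for distal convoluted tubule, intercalated cell, proximal tubule transport and thick ascending limb. Rescaling TPM over 1 transcript per gene gave 2 distal convoluted tubule genes. With TPM summed over transcripts the 25 most abundant genes held 19.7% of TPM in place of 14.7%. The uneven share of 8.81% became 4.22% among genes that averaged at least 10 TPM, 17.8% among genes with any count, 15.9% at a ratio of 3 and 3.97% at a ratio of 6. With each culture left out in turn it was 3.73% to 7.67% (3.73% without culture 14 and 4.71% without culture 3), genes detected were 12084 to 12682, the median coefficient of variation 18.4% to 29.5%, the edgeR value 31.4% to 37.5%, the share of the 25 most abundant genes 14.4% to 15.3% and the lowest correlation 0.970 to 0.981. Detected members were then 4 to 7 for podocyte (7 without culture 3), 2 to 3 for principal cell, 1 to 2 for distal convoluted tubule (2 without culture 3) and 3 to 4 for proximal tubule metabolism genes. Of all values recomputed, 280 stayed within the spread between cultures or within 1.5 times and 48 moved. Depth limits levels under 0.0242 to 0.0309 TPM for a transcript of 2000 bases.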

Other observations

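RNA of cell cycle genes was present in every culture, and dividing cells were not counted. All 12 genes of a cell cycle list were detected, against 50% of all genes, with a median of 22 TPM. None was uneven by the 4-fold rule, against 8.81% of all genes that averaged 1 TPM or more. *Pcna*, the sliding clamp of DNA replication, was at 100.2, 96.4, 95 and 104 TPM, within 1.09 times. *Cdk1*, the mitotic kinase, was at 53.1, 45, 54.5 and 68.1 TPM and *Top2a*, the topoisomerase of chromosome segregation, at 9.74, 12.7, 11.6 and 27.1 TPM. *Rrm2*, a subunit of ribonucleotide reductase, was at 55, 36.5, 48.9 and 126 TPM. *Mki67*, a common marker of proliferation, had the lowest mean of the 12, at 1.42, 2.94, 3.33 and 4.08 TPM. The list summed to 347, 314, 355 and 581 TPM. All 12 genes were highest in culture 21 in TPM, against 43.9% of all genes that averaged 1 TPM or more, and 10 of 12 in TMM-scaled CPM, against 25.7%.

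Of a list of 11 receptors for factors used in the study's cultures, 9 were detected, against 50% of all genes. The list includes *Ret* and *Gfra1*, for glial-derived neurotrophic factor, which the control cultures did not receive. It also includes *Insr*, *Igf1r* and *Tfrc*, which are not receptors for the growth factors named above. *Fgfr1* and *Fgfr2*, receptors for basic fibroblast growth factor, were at 12.5, 22.7, 31.6 and 21.2 TPM and at 4.98, 9.58, 7.5 and 6.8 TPM. *Egfr*, the receptor for epidermal growth factor, was at 4.91, 7.04, 9.27 and 12 TPM, and *Met*, the receptor for hepatocyte growth factor, at 7.36, 11.9, 2.36 and 16.7 TPM. *Met* was lowest in culture 14, as the epithelial genes were, and *Fgfr1* was highest there. Of the polycystic kidney disease genes, *Pkd1* was at 2.3, 7.43, 7.3 and 5.53 TPM and *Pkhd1*, which encodes fibrocystin, at 1.49, 4.01, 0.724 and 1.9 TPM. Among 9 common reference genes, all detected, *Tbp* was at 26.4, 30.7, 32.1 and 35.7 TPM and *Hprt* at 424, 318, 279 and 288 TPM. *Gapdh* was at 1233, 827, 805 and 1409 TPM, within 1.75 times, while *Actb* ranged over 3.46 times, against a median of 1.86 times over all genes.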
